A study of Mus musculus with 16 samples.

Results

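The 9 lymphocyte genes described here mark T cells (Cd3e, Cd3d, Cd3g, Cd4, Cd8a and Foxp3), NK cells (Klrb1c and Ncr1) or cytotoxic cells of both kinds (Nkg7). They were taken by name from the count and TPM tables of a mouse rhabdoid tumor series, and 9 of 9 were found among the 24982 genes listed. The series holds 16 tumors, each from a different Smarcb1flox/flox;R26-CreERT2 mouse of mixed 129/SV and C57BL/6 background. In these mice the R26 locus drives a tamoxifen-dependent Cre in all tissues, and tamoxifen was given at E6, E7 or E8 to delete Smarcb1, a core subunit of the SWI/SNF chromatin remodelling complex. All groups share this genotype and treatment, and the samples analysed here include no normal tissue or untreated mouse. The 5 Shh tumors were labelled intra-CNS, were all induced at E6 and were collected at 30 to 180 days of age (median 87). The 6 intracranial Myc tumors lay outside the CNS, were induced at E6 (1 tumor), E7 (1) or E8 (4) and were collected at 52 to 170 days (median 110.5). The 5 extracranial Myc tumors, of the jaw, nose, mouth or back, were induced at E6 (1 tumor) or E8 (4) and were collected at 80 to 210 days (median 90). Subgroup, site and, in part, day of induction therefore cannot be told apart between Shh and Myc tumors. The tumor of mouse 43990A is extracranial (nose) by its label but intracranial in the sample list of the study.

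T cells recognise peptides through a receptor whose signal passes into the cell through the CD3 chains, encoded by Cd3e, Cd3d and Cd3g. Cd4 and Cd8a encode the coreceptors of helper and cytotoxic T cells, and Foxp3 encodes the transcription factor of regulatory T cells. NK cells carry no rearranged antigen receptor and are recognised in the mouse by the activating receptor NKp46 (Ncr1) and by NK1.1 (Klrb1c), while Nkg7 encodes a membrane protein of cytotoxic granules. CD4 is not restricted to T cells, since some dendritic cells of the mouse also carry it. The RNA was extracted from whole tumor pieces, so that fewer lymphocytes and less RNA per lymphocyte cannot be told apart.

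The promoters of the 3 CD3 genes, which moved together across tumors, and of Ncr1, which was the member nearest to absence in Shh tumors, are shown here (RefSeq, GRCm38.p6). Each line holds the 250 bases before the start, 5′ to 3′ on the strand of the gene, with capitals for matches to the motifs described after them. The windows are chr9:45009612-45009861 on the minus strand for Cd3e, chr9:44981536-44981785 on the plus strand for Cd3d, chr9:44980432-44980681 on the minus strand for Cd3g and chr7:4337465-4337714 on the plus strand for Ncr1.
Cd3e: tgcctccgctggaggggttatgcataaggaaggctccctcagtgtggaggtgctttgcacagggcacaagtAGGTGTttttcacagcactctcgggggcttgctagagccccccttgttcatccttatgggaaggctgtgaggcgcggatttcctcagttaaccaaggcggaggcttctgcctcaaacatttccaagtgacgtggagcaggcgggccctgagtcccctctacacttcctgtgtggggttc
Cd3d: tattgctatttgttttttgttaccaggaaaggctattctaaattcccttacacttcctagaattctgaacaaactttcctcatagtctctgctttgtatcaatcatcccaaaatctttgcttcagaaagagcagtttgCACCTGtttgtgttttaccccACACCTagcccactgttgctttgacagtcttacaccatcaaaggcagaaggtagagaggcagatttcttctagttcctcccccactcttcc
Cd3g: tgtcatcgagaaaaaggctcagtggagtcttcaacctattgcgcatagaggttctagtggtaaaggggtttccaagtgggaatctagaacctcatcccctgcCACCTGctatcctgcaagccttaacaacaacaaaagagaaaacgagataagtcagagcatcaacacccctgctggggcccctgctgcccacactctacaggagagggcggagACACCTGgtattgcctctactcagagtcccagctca
Ncr1: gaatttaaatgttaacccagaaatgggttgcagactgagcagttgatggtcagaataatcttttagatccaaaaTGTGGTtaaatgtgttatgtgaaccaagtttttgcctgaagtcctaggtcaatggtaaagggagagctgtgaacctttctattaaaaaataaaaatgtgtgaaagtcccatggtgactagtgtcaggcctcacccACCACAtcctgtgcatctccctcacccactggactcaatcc
The motifs searched on both strands were TGTGGT, bound by Runx factors, AGGTGT, bound by T-box factors, and CACCTG, an E-box. The last 2 can overlap, as they do in Cd3g in the run that starts 36 bases before the start. Each of the 3 CD3 promoters held AGGTGT or its reverse complement ACACCT, at 179, 91 and 36 bases before the start for Cd3e, Cd3d and Cd3g, and this motif occurred in 12.0% of 27025 promoters of the same length. Cd3d and Cd3g also held CACCTG (17.1% of promoters). Ncr1 held TGTGGT once on each strand, at 176 and 41 bases before its start (14.2% of promoters). A RefSeq promoter was matched for 8 of the 9 members, and that of Cd4 was not analysed here. These matches describe letters and are not evidence of binding. In the GENCODE annotation of GRCm38, Cd3g (chr9:44969572-44980431, minus strand) and Cd3d (chr9:44981786-44987339, plus strand) start 1355 bases apart and run in opposite directions, and Cd3e (chr9:44998740-45009627, minus strand) follows 11401 bases beyond the end of Cd3d.

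Total counts ranged from 17889968 to 110177889 per tumor, and 3 counts, taken as the floor of detection, corresponded to 0.0272 to 0.168 CPM. The members were low throughout, with 22 of 45 values (9 genes in 5 tumors) above 3 counts in Shh tumors and 82 of 99 in Myc tumors. Smarcb1 TPM was 3.99 to 58.1 in Shh and 6.48 to 43.7 in Myc tumors. Reads from any part of this transcript, and from host cells that kept the gene, enter these values, so that they do not check the deletion. Of the intra-CNS tumors, 29048 stood apart in oligodendrocyte genes, whose summed TPM was 4753 against a median of 92.3 in the group. In the intracranial Myc tumor R26P115 the most abundant gene took 10.1% of all counts. Both libraries were kept. Without them 5 of the 9 members, in place of 6, were called between Myc and Shh tumors (27.1% of all genes).

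All 9 members had a higher fitted level in Myc than in Shh tumors, and 6 of 9 rose past the threshold (edgeR quasi-likelihood test, adjusted p under 0.05 over all genes and an absolute log2 fold change above 1). In this comparison 26% of all genes tested were called, 13.1% as higher in Myc tumors and 12.9% as lower. The 6 were Ncr1, Nkg7, Cd3d, Klrb1c, Cd3g and Cd4. The median log2 fold change of the members was 3.05, against 0.15 over all genes. Other tools gave other counts: DESeq2 called 7 of 9 (29.1% of all genes), adding Cd8a, while limma on log2(TPM + 1), which differs in unit and test and compresses differences between low values, called 1 of 9, Nkg7 (24.6% of all genes). A filter on low counts, which left Foxp3 and Ncr1 untested, gave 6 calls (31.2% of the genes kept), and the naming scheme of the mice as a covariate gave 5 (25.6%). All 9 differences in log2(TPM + 1) were also positive within the numbered mice alone (8 Myc and 3 Shh, 0.12 to 1.74) and within the mice named R26P (3 Myc and 2 Shh, 0.08 to 0.91). By unadjusted two-sided exact permutation tests, only Cd3d (p = 0.0485) and Cd4 (p = 0.0303) were under 0.05 within the numbered mice. Within the R26P mice these tests gave p from 0.1 to 0.8, with 0.1 the smallest possible.

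**Figure D1:**
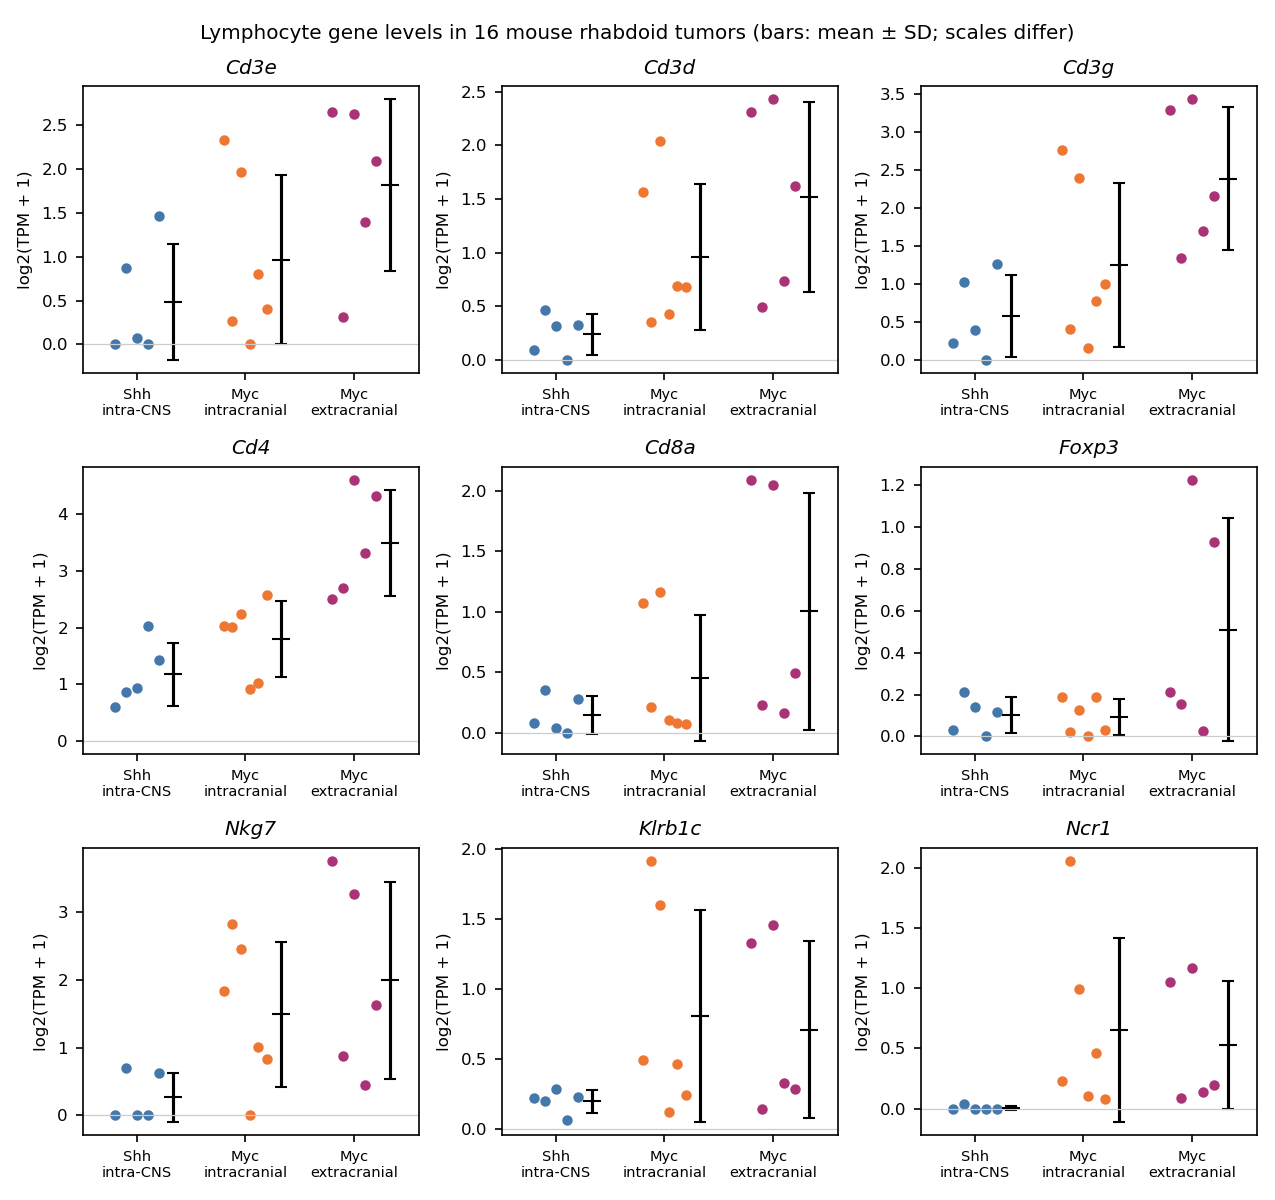
Level of each lymphocyte gene as log2(TPM + 1) in 5 Shh, 6 intracranial Myc and 5 extracranial Myc tumors; each point is 1 tumor and the bars show the mean ± SD, with a separate scale for each gene. Ncr1 lay at 0 in 4 of 5 Shh tumors, and in each group of Myc tumors several genes were high in 2 tumors and low in the rest.

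Of the CD3 genes, Cd3e, the signalling chain found in every T cell receptor complex, was measured at 0 TPM in the Shh tumors 29048 and R26P87, at 0.0553 in 38594A, 0.830 in 29050A and 1.75 in R26P98. In intracranial Myc tumors it was 0 at the lowest (43992A), 0.538 at the median and 4.03 at the highest (29225D). In extracranial Myc tumors it was 0.246 (43987A), 1.62 (43998A), 3.27 (R26P123), 5.16 (43990A) and 5.25 (43825B). The groups overlapped, since R26P98 exceeded 6 of 11 Myc tumors and 43992A held no Cd3e read. The log2 fold change between Myc and Shh was 2.498 (SE 1.33), which did not pass the test (adjusted p = 0.155, edgeR), and the difference in log2(TPM + 1) was 0.87 (p = 0.107, two-sided exact permutation test over 4368 splits of the tumors). By this unadjusted test 5 of 9 members, and 46.8% of all genes, had a p under 0.05, so that the members' share is near that of all genes.

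Cd3d was 0, 0.0639, 0.242, 0.250 and 0.381 TPM in the Shh tumors R26P87, 29048, 38594A, R26P98 and 29050A. It was 0.281 at the lowest, 0.606 at the median and 3.10 at the highest in intracranial Myc tumors, and 0.404 (43987A), 0.667 (43998A), 2.08 (R26P123), 3.94 (43825B) and 4.39 (43990A) in extracranial ones. The levels of 9 of 11 Myc tumors were above those of every Shh tumor, the exceptions being 29941C and 43992A. Cd3d rose by a log2 fold change of 3.56 (SE 0.96, adjusted p = 0.00929, edgeR), and the exact permutation test on log2(TPM + 1) gave a difference of 0.97 (p = 0.0147).

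Cd3g was 0 (R26P87), 0.166 (29048), 0.315 (38594A), 1.03 (29050A) and 1.41 TPM (R26P98) in Shh tumors. In intracranial Myc tumors it ranged from 0.112 (43992A) over a median of 0.860 to 5.78 (29225D), and in extracranial ones it was 1.53 (43987A), 2.24 (43998A), 3.47 (R26P123), 8.81 (43825B) and 9.84 (43990A). All 5 extracranial tumors were above all Shh tumors, whereas intracranial ones overlapped with them. Its log2 fold change was 3.02 (SE 1.09, adjusted p = 0.0425, edgeR; difference in log2(TPM + 1) 1.19, p = 0.0465, exact permutation test). This call lies close to the threshold and was lost in 9 of 16 fits that left out a single tumor.

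Reads of the CD3 genes were thus spread unevenly within both subgroups. Among Shh tumors, R26P98 (39 counts over the 3 genes) and 29050A (71) held most of them, while R26P87 held 0 counts, which allows up to 3. Among Myc tumors the summed CD3 counts, which depend on depth, ran from 5 (43992A) to 394 (29225D). Their summed TPM ran from 0.455 (43992A) to 19.4 (43990A), with 11.8 in 29225D. The tumor of 43992A had 25.2 TPM of Ptprc, which encodes the pan-leukocyte antigen CD45, and a summed TPM of 3595 over 9 macrophage genes. The reason for its low CD3 level was not tested.

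Cd4 (chr6:124864692-124888221, minus strand) was the highest member by mean TPM in each of the 3 groups and the single one above 3 counts in all 16 tumors. It measured 0.523 (29048), 0.821 (29050A), 0.913 (38594A), 1.69 (R26P98) and 3.08 TPM (R26P87) in Shh tumors. In intracranial Myc tumors it was 0.889 at the lowest (43992A), 3.04 at the median and 4.96 at the highest (R26P170), and in extracranial ones it was 4.69 (43825B), 5.51 (43987A), 8.99 (43998A), 18.9 (R26P123) and 23.3 (43990A). All extracranial tumors lay above all Shh tumors, and 7 of 11 Myc tumors did. Cd4 rose in Myc tumors by a log2 fold change of 2.83 (SE 0.79, adjusted p = 0.0113, edgeR; difference in log2(TPM + 1) 1.39, p = 0.0247, exact permutation test).

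Cd4 and the CD3 genes followed each other loosely from tumor to tumor. The Shh tumor R26P87, with 86 counts of Cd4, held no count of any CD3 gene. The ratio of Cd4 to Cd3e TPM, taken in the 12 tumors with more than 3 counts of Cd3e, was between 0.762 and 1.38 in 29225D, 43825B, R26P98, 29050A, 43989C and R26P115, but between 4.51 and 22.4 in the other 6. The lowest of these 6 was 43990A and the highest 43987A. Of 7 dendritic cell genes, Ccr7 (log2 fold change 5.69, SE 1.79, adjusted p = 0.0226) and Batf3 (2.496, SE 0.79, adjusted p = 0.0225) were higher and Siglech (-2.94, SE 0.71, adjusted p = 0.00463) lower in Myc tumors (edgeR). The other 4 were not called. Xcr1 gave 1.73 (SE 1.38, adjusted p = 0.341), Clec9a 2.04 (SE 1.13, adjusted p = 0.174) and Itgax 1.63 (SE 0.61, adjusted p = 0.0514, edgeR). Flt3 went the other way at -1.51 (SE 0.79, adjusted p = 0.152, edgeR). For Ccr7, 1 extracranial tumor gave 2841 of the 3999 counts in Myc tumors. The Myc median of Ccr7 was 1.41 TPM and its highest level in Shh tumors 1.46 TPM. Which cells carried the Cd4 reads was not tested.

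Cd8a (chr6:71373427-71379173, plus strand) was 0 (R26P87), 0.0257 (38594A), 0.0543 (29048), 0.212 (R26P98) and 0.274 TPM (29050A) in Shh tumors. In intracranial Myc tumors it was 0.0507 at the lowest, 0.116 at the median and 1.24 at the highest (43989C), and in extracranial ones 0.118 (43998A), 0.172 (43987A), 0.409 (R26P123), 3.12 (43990A) and 3.25 (43825B). Levels above 1 TPM occurred in 4 of 11 Myc tumors and in no Shh tumor. The log2 fold change of 3.38 (SE 1.28) missed the threshold (adjusted p = 0.0528, edgeR; difference in log2(TPM + 1) 0.55, p = 0.143, exact permutation test). Cd8b1, which encodes the partner chain of the same coreceptor, gave a log2 fold change of 3.33 (SE 1.29, adjusted p = 0.0575, edgeR) and reached 4.58 TPM in 43990A and 3.54 in 43825B.

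Foxp3 (chrX:7573644-7595245, plus strand) stayed near the floor in most tumors. It was 0, 0.0216, 0.0846, 0.103 and 0.159 TPM in the Shh tumors R26P87, 29048, R26P98, 38594A and 29050A, and 0 at the lowest, 0.0564 at the median and 0.139 at the highest in intracranial Myc tumors. Among extracranial Myc tumors it was 0.0188 (43998A), 0.114 (43987A), 0.160 (43825B), 0.905 (R26P123) and 1.34 (43990A). The last 2 tumors, with 50 and 72 counts, stood above all others, which had at most 16 counts. They were also the 2 tumors of highest Cd4. Between Myc and Shh the log2 fold change of 2.26 (SE 1.23) did not pass the test (adjusted p = 0.165, edgeR), and the difference in log2(TPM + 1) was 0.18 (p = 0.338, exact permutation test). As Foxp3 overlaps other annotated genes, among them Flicr on its own strand, a few reads near the floor may not be its own.

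Of the cytotoxic and NK genes, Nkg7 (chr7:43437073-43438249, plus strand) was 0 TPM in 3 of 5 Shh tumors (29048, 38594A and R26P87), 0.545 in R26P98 and 0.624 in 29050A. It was 0 at the lowest (43992A), 1.78 at the median and 6.11 at the highest (29941C) in intracranial Myc tumors, and 0.364 (43998A), 0.826 (43987A), 2.10 (R26P123), 8.62 (43990A) and 12.5 (43825B) in extracranial ones. All but 2 of the 11 Myc tumors, 43992A and 43998A, were above every Shh tumor. Nkg7 rose by a log2 fold change of 4.30 (SE 1.39, adjusted p = 0.0255, edgeR; difference in log2(TPM + 1) 1.45, p = 0.0217, exact permutation test).

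Klrb1c (chr6:128778485-128789215, minus strand) was 0.0420 (R26P87), 0.148 (29050A), 0.161 (29048), 0.168 (R26P98) and 0.214 TPM (38594A) in Shh tumors, a narrow band of 1 to 10 counts. It ranged from 0.0869 (43992A) over a median of 0.391 to 2.76 (29941C) in intracranial Myc tumors and was 0.102 (43987A), 0.216 (R26P123), 0.253 (43998A), 1.51 (43825B) and 1.75 (43990A) in extracranial ones. It rose by a log2 fold change of 3.05 (SE 0.94, adjusted p = 0.0206, edgeR), while the difference in log2(TPM + 1) was 0.56 (p = 0.0742, exact permutation test). Klrb1c belongs to a multigene family of similar sequence and overlaps the gene model Gm44511 on its own strand, so that the counting could split or share its reads.

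Ncr1 (chr7:4337724-4345164, plus strand) gave the largest fitted log2 fold change of the 9 in edgeR. Its difference in log2(TPM + 1) was smaller than those of Nkg7 (1.45), Cd4 (1.39), Cd3g (1.19), Cd3d (0.97) and Cd3e (0.87). The 5 Shh tumors held 1 count of Ncr1 in all, in 29050A (0.0267 TPM). In intracranial Myc tumors it was 0.0542 TPM at the lowest (R26P170), 0.274 at the median and 3.15 at the highest (29941C), and in extracranial ones it was 0.0612 (43987A), 0.101 (43998A), 0.146 (R26P123), 1.07 (43825B) and 1.25 (43990A). Ncr1 was the member for which every Myc tumor lay above every Shh tumor in TPM, as was so for 2.44% of all genes. In 5 of the 11 Myc tumors, however, this rested on 1 to 3 counts, which is not above the floor. Ncr1 rose by a log2 fold change of 6.03 (SE 1.36, adjusted p = 0.00293, edgeR; difference in log2(TPM + 1) 0.59, p = 0.0485, exact permutation test). The exact p passed 0.05 in 10 of 16 repeats without 1 tumor, reaching 0.0589.

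The size of this change is poorly bounded. Relative to all counts, pooled Ncr1 reads were 123-fold higher in Myc than in Shh tumors, with a 95% exact binomial interval of 21.9 to 4878 that covers counting error alone. Mouse 29941C gave 222 of the 296 Myc counts, and without it the ratio was 41.0 (7.14 to 1642). The fitted log2 fold change without 29941C was 5.31 (SE 1.17, adjusted p = 0.00304, edgeR). Ncr1, Cd3d and Cd4 were called in each of the 16 fits that left out 1 tumor, with adjusted p up to 0.0109, 0.0262 and 0.0329 in edgeR. Nkg7 lost its call without 29048, 38594A or R26P87, and Klrb1c without R26P87. Cd8a gained a call in 4 of these fits.

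**Figure D2:**
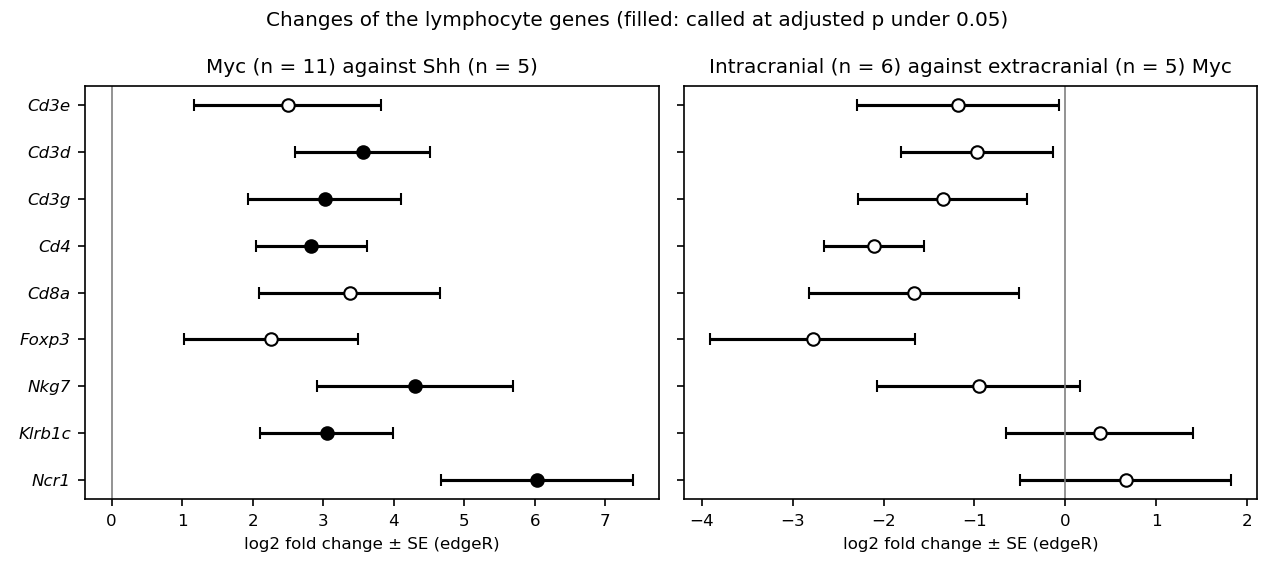
Log2 fold change ± SE of each lymphocyte gene in edgeR, between Myc and Shh tumors (left, positive is higher in Myc) and between intracranial and extracranial Myc tumors (right, negative is higher in extracranial); filled points passed the adjusted threshold. All 9 points lie above 0 on the left, from 2.26 to 6.03, and none is filled on the right.

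The comparison was then repeated among tumors of 1 day of induction and among intracranial tumors. Neither subset held the site fixed, since every Myc tumor lay outside the CNS and every Shh tumor inside it. The 2 Myc tumors induced at E6, 43825B and R26P170, were collected at 210 and 170 days, against 30 to 180 days in Shh tumors. Among tumors induced at E6 (2 Myc and 5 Shh), 2 of 9 members were called (16.9% of all genes), namely Cd3d (log2 fold change 4.07, SE 1.11, adjusted p = 0.0431) and Ncr1 (5.75, SE 1.29, adjusted p = 0.0230, edgeR). Members that lost their call there had folds as large as over all tumors for Nkg7 (5.26, SE 1.58), Cd3g (3.62, SE 1.30) and Klrb1c (3.08, SE 0.89), and a lower one for Cd4 (2.34, SE 0.71). With intracranial tumors alone (6 Myc and 5 Shh), 3 were called (23.0% of all genes), namely Cd3d (3.03, SE 0.94, adjusted p = 0.0337), Klrb1c (3.21, SE 0.95, adjusted p = 0.0268) and Ncr1 (6.31, SE 1.39, adjusted p = 0.00647, edgeR). The members that lost their call there were Nkg7, with a log2 fold change of 3.78 (SE 1.37, adjusted p = 0.0597), Cd3g with 2.25 (SE 1.14, adjusted p = 0.162) and Cd4 with 1.503 (SE 0.61, adjusted p = 0.0887, edgeR). With extracranial tumors as the sole Myc tumors 7 of 9 were called (26.2% of all genes).

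Whether the 2 sites of Myc tumors differ was compared in a fit of the 11 Myc tumors. No member was called there, and 1 of 21261 genes was (0.00470%, or 0.00659% after the filter on low counts), while 2606 genes had an unadjusted p under 0.05 in edgeR and DESeq2 called 490 genes (2.30%). Fitted levels were lower in intracranial tumors for 7 of 9 members and higher for Klrb1c (log2 fold change 0.38, SE 1.03, adjusted p = 0.909) and Ncr1 (0.67, SE 1.16, adjusted p = 0.840), and the latter pair turned to -0.26 and -0.58 without 29941C.

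Cd4 came nearest to a difference between these sites, with 4 of 5 extracranial tumors above all 6 intracranial ones and 43825B below R26P170. Its log2 fold change was -2.11 (SE 0.55, unadjusted p = 0.00270, adjusted p = 0.345, edgeR), DESeq2 gave an adjusted p of 0.00863, and the exact permutation test gave a difference of -1.69 in log2(TPM + 1) (p = 0.00649 over 462 splits, of which the smallest possible is 0.00216, with 6.33% of all genes under 0.05). Over the fits with another normalization, filter, covariate or tool, the adjusted p of Cd4 ranged from 0.00863 to 0.773. With 43990A placed among intracranial tumors, as in the sample list of the study, the log2 fold change was -0.78 (SE 0.80, adjusted p = 0.756, edgeR), whereas with 43990A left out it was -1.79 (SE 0.56, adjusted p = 0.349, edgeR; difference in log2(TPM + 1) -1.41, p = 0.0143, exact permutation test). Foxp3 had -2.78 (SE 1.13, adjusted p = 0.376) as labelled, -0.28 (SE 1.36, adjusted p = 0.959) with 43990A moved and -2.07 (SE 1.13, adjusted p = 0.496, edgeR) with it left out. Its exact permutation p was 0.0584.

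The remaining T cell genes had log2 fold changes of -0.97 (Cd3d, SE 0.84), -1.18 (Cd3e, SE 1.11), -1.35 (Cd3g, SE 0.93) and -1.66 (Cd8a, SE 1.16) between the sites, with adjusted p from 0.549 to 0.677 (edgeR), and Nkg7 had -0.95 (SE 1.12, adjusted p = 0.739). By mean TPM, 6 of 9 genes stood lowest in Shh, higher in intracranial Myc and highest in extracranial Myc tumors, the exceptions being Foxp3, with 0.0735 in Shh and 0.0678 in intracranial tumors, and Klrb1c and Ncr1, which were highest in intracranial tumors at 0.974 and 0.805. Ranges of Shh and intracranial Myc tumors overlapped for 8 of 9 genes, Ncr1 being the exception, and those of Shh and extracranial Myc tumors for 5, the exceptions being Cd3d, Cd3g, Cd4 and Ncr1. All intracranial tumors were above all Shh tumors for 3.94% of all genes, and all extracranial ones for 5.35%.

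Age at collection, fitted as log2 days over the 11 Myc tumors, gave no call among the members, nor among 21261 genes (0 called and 843 with an unadjusted p under 0.05 in edgeR, 36 called in DESeq2, or 0.169%). Per doubling of age the fitted log2 change was 1.60 (SE 1.21) for Cd3e, 1.26 (SE 0.86) for Cd3d, 1.32 (SE 0.99) for Cd3g and 1.39 (SE 1.10) for Cd8a, and -0.89 (SE 0.75) for Ncr1 and -0.52 (SE 0.74) for Klrb1c, with adjusted p of 0.998 in each case. The youngest Myc tumor, of 29941C at 52 days, had the highest Ncr1, and without it the slopes of Ncr1 and Klrb1c turned positive (0.55 and 0.50).

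NK and T cell genes parted most clearly in this tumor. In 29941C, Ncr1 and Klrb1c together gave 572 counts and the 3 CD3 genes 48, and the ratio of their summed TPM was 7.34. In the other 9 Myc tumors with enough CD3 counts (more than 9), this ratio was between 0.0410 (R26P123) and 0.363 (R26P115), and in the Shh tumors R26P98 and 29050A it was 0.0494 and 0.0780. The same tumor held the highest levels of granzyme A (Gzma, 17.8 TPM), perforin (Prf1, 24.9 TPM) and the NK receptor chain CD94 (Klrd1, 11.004 TPM). Its library was also the deepest of the 16, at 110177889 counts, which does not enter a TPM.

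**Figure D3:**
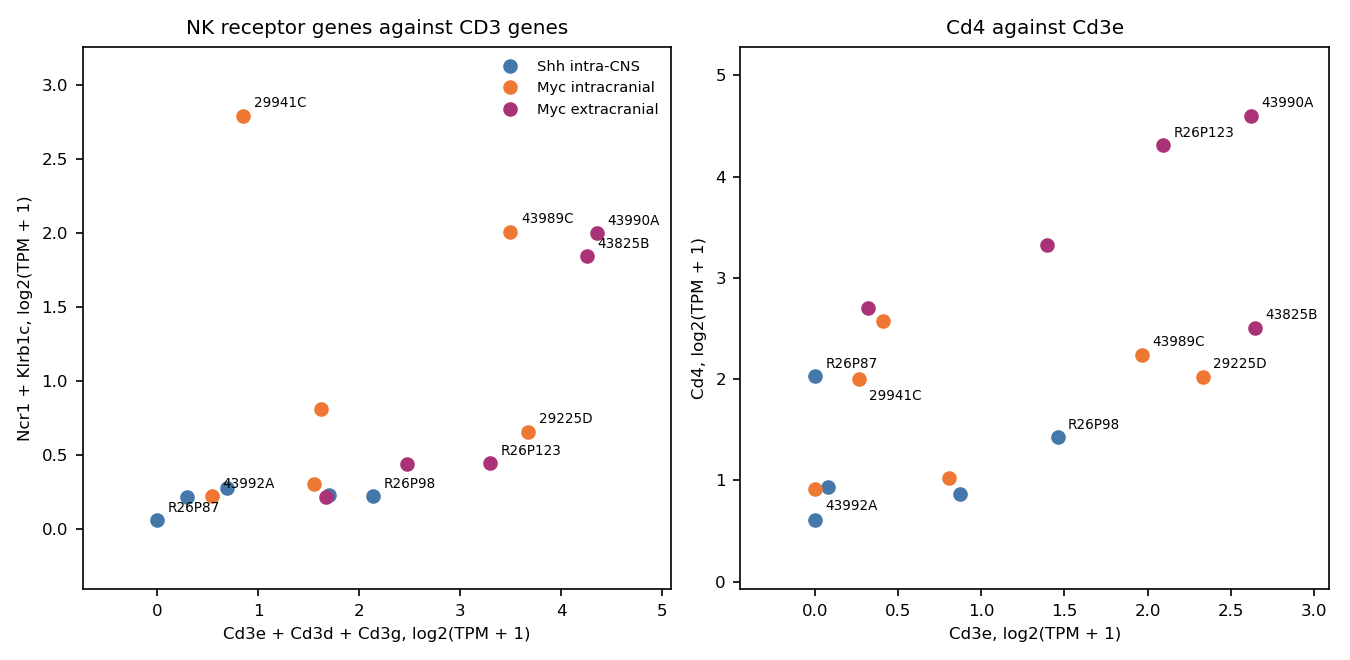
Left, summed TPM of Ncr1 and Klrb1c against summed TPM of the 3 CD3 genes; right, Cd4 against Cd3e; axes are log2(TPM + 1), each point is 1 of 16 tumors and colours give subgroup and site. Tumor 29941C lies apart with high NK genes at a CD3 sum of 0.806 TPM, and R26P87 has 3.08 TPM of Cd4 at a Cd3e of 0.

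Across the 11 Myc tumors the members fell into correlated sets, given here as a description over points that share their library and depth. Among Cd3e, Cd3d, Cd3g and Cd8a the 6 pairs had Pearson r between 0.85 and 0.96 in log2(TPM + 1) (Spearman rho 0.76 to 0.95). Ncr1 and Klrb1c had r = 0.96 (rho = 0.92). Between these sets the 8 pairs had r from 0.13 to 0.57, and from 0.69 to 0.88 once 29941C was left out. Without the 2 tumors farthest from the median of the T cell gene they were -0.22 to 0.38, so that these values depend on which tumors are included. Nkg7 correlated with both, with r from 0.66 to 0.83 against the T cell set and 0.78 to 0.86 against the NK pair, the former being 0.35 to 0.59 without the 2 farthest tumors. Cd4 had r from 0.41 to 0.61 with the T cell set, 0.04 and 0.11 with Ncr1 and Klrb1c, and 0.78 with Foxp3. The last value rested on 43990A and R26P123, without which it was -0.03.

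**Figure D4:**
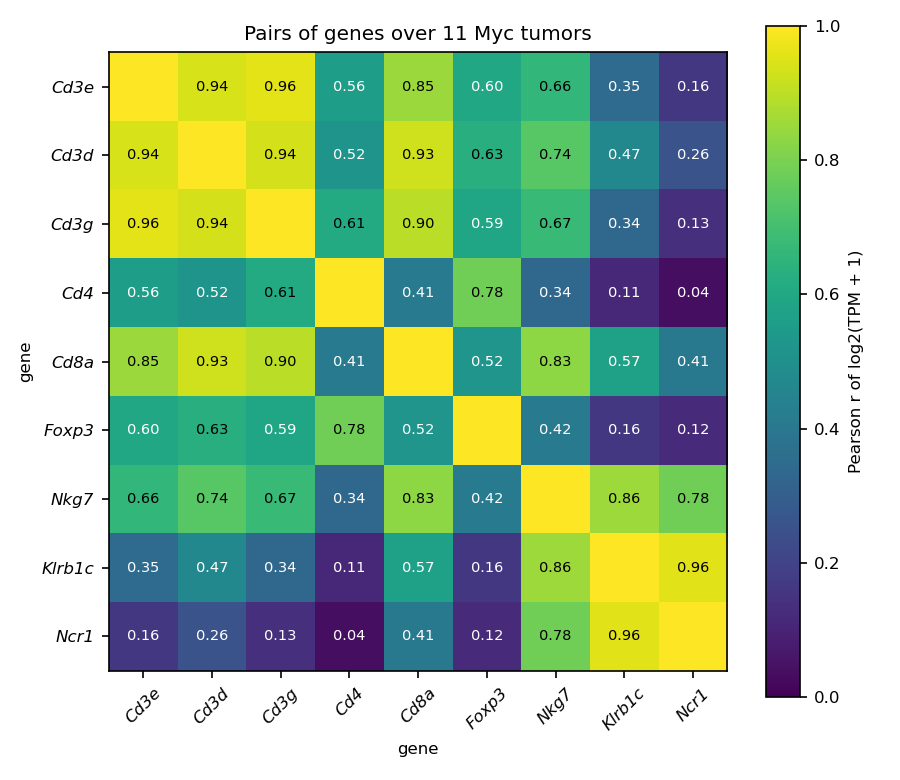
Pearson r between each pair of lymphocyte genes over the 11 Myc tumors on log2(TPM + 1), printed in each cell. The 3 CD3 genes and Cd8a form a block with r of at least 0.85, Ncr1 and Klrb1c have 0.96, and Cd4 has its highest value with Foxp3 at 0.78.

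The genes most like Cd3e over all 16 tumors, among the 14803 genes that averaged 50 or more counts per tumor, were Ltb (Pearson r = 0.93), Gimap3 (0.91), Cxcr6 (0.90), Il27ra (0.90) and Serpina3g (0.88). Those most like Ncr1 were Gzmb (0.94), Gzma (0.88), Prf1 (0.87), Gzmg (0.84) and Il2rb (0.83). Ltb encodes lymphotoxin beta and Gimap3 a GTPase of lymphocytes. Gzmb, Gzma and Prf1 encode proteins of cytotoxic granules, and Il2rb encodes a receptor chain shared by interleukins 2 and 15. Without the 2 tumors farthest from the median of Cd3e or Ncr1, the 5 values for Cd3e were 0.82 to 0.94 and those for Ncr1 0.72 to 0.92.

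Pan-leukocyte and macrophage genes rose in Myc tumors in the same comparison. All 7 pan-leukocyte genes tested were higher in Myc tumors, with a median log2 fold change of 2.83, and so were all 9 macrophage genes, with a median of 2.81 (edgeR). Ptprc was 7.42 ± 3.51 TPM (SD, n = 5) in Shh tumors and 42.01 ± 22.2 TPM (SD, n = 11) in the Myc subgroup, with a log2 fold change of 3.02 (SE 0.42, adjusted p = 8.24e-05). Adgre1, which encodes the macrophage antigen F4/80, gave 3.03 (SE 0.57, adjusted p = 0.000758, edgeR). C1qa, a complement component made by macrophages, gave 2.47 (SE 0.53, adjusted p = 0.00217, edgeR). Genes of other tissues moved in the same comparison. Of 5 skeletal muscle genes 3 were higher in Myc tumors (summed TPM 3.30 to 605, against 2.21 to 7.03 in Shh tumors), with the highest sum in R26P123. Of 6 oligodendrocyte genes 4 were lower (21.6 to 104 against 43.7 to 4753), as were 2 of 5 neuron genes (10.8 to 472 against 85.7 to 3039). The part of leukocyte and other tissue content in the members' changes was not tested.

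Cd3e and Ncr1 were also set against Ptprc. Cd3e amounted to 0%, 0%, 1.10%, 7.54% and 15.3% of the Ptprc TPM in the Shh tumors 29048, R26P87, 38594A, 29050A and R26P98. In Myc tumors it was 0% at the lowest, 4.41% at the median and 11.1% at the highest (29225D), so that the highest share belonged to a Shh tumor. Ncr1 amounted to at most 0.242% of Ptprc in Shh tumors and to 0.186% at the lowest, 0.481% at the median and 10.98% at the highest (29941C) in Myc tumors. These ratios are given without a test, and the Shh values rest on 55 counts of Cd3e and 1 count of Ncr1 in all.

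**Figure D5:**
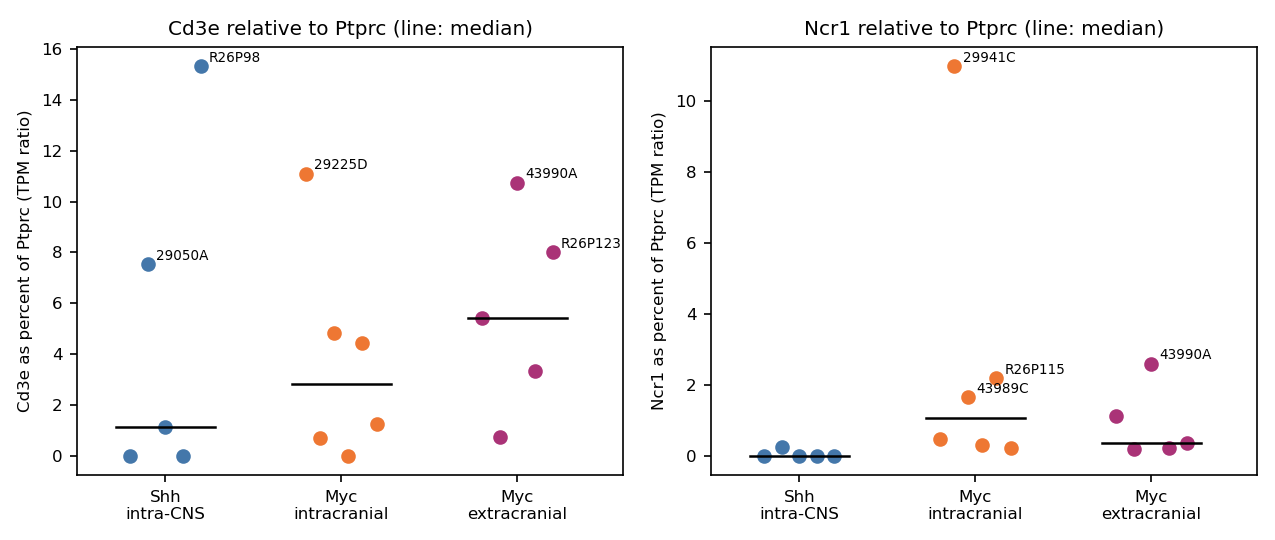
TPM of Cd3e (left) and Ncr1 (right) as a percent of the Ptprc TPM of the same tumor in Shh, intracranial Myc and extracranial Myc tumors; each point is 1 tumor and lines show medians. For Cd3e the highest point is the Shh tumor R26P98 at 15.3%, and for Ncr1 it is the Myc tumor 29941C at 10.98%.

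Of 14 partners of T cell receptor signalling, 6 were higher in Myc tumors, 0 lower and 8 not called, with a median log2 fold change of 2.70. Among the 6 were the costimulatory receptor Cd28 (2.88, SE 0.79, adjusted p = 0.0105), Cd2, Cd6, Sh2d2a and Ubash3a (edgeR). Lck, the kinase bound to CD4 and CD8, had 0.95 (SE 0.49, adjusted p = 0.144) and Cd247, the zeta chain of the receptor, -0.37 (SE 0.52, adjusted p = 0.597). Both transcripts were present in every Shh tumor, R26P87 without CD3 reads included, as Lck was at least 1.40 TPM and Cd247 at least 0.601 TPM in each Shh tumor.

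Of 7 further regulatory T cell genes, 4 were higher in Myc tumors (Il2ra, Ctla4, Tnfrsf18 and Icos) and 1 lower. Il2ra, the alpha chain of the interleukin 2 receptor, had a log2 fold change of 2.96 (SE 0.77, adjusted p = 0.00750) and Ctla4, an inhibitory receptor, 3.66 (SE 1.13, adjusted p = 0.0206). The lower one was Ikzf2, which encodes the transcription factor Helios and was 3.90 ± 0.560 TPM (SD, n = 5) in Shh and 0.596 ± 0.414 TPM (SD, n = 11) in Myc tumors (log2 fold change -2.15, SE 0.44, adjusted p = 0.00137, edgeR).

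Of 10 further NK genes tested, 7 were higher in Myc tumors (Klrd1, Klrk1, Klri2, Klrc1, Cd226, Gzma and Prf1), 0 lower and 3 not called, with a median log2 fold change of 3.44. Klrk1, which encodes the activating receptor NKG2D, gave 4.58 (SE 1.05, adjusted p = 0.00337) and Klrd1 4.17 (SE 1.30, adjusted p = 0.0215, edgeR). The transcription factors Eomes (2.32, SE 1.72, adjusted p = 0.306) and Tbx21 (-1.76, SE 0.81, adjusted p = 0.103, edgeR) were not called. Tbx21 was the 1 gene of the 10 with a lower fitted level in Myc tumors. Eomes, singled out after its values were seen, reached 90.1 TPM in 43992A, where Ncr1 had 1 count. Klra8 and Klra4 of the Ly49 family, whose members are near-identical copies, had 0 counts in all 16 tumors and were not tested.

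Of 6 genes of gamma delta T and innate lymphoid cells tested, Il7r, Il1rl1 and Il18r1 were higher and Sox13 lower in Myc tumors. For Il1rl1, 1 intracranial tumor gave 21365 of the 28667 counts in Myc tumors, and for Il18r1 1 intracranial tumor gave 5675 of 7780. Sox13 was 260 ± 120 TPM (SD, n = 5) in Shh and 4.96 ± 3.44 TPM (SD, n = 11) in Myc tumors (log2 fold change -5.15, SE 0.45), far above any CD3 gene in Shh tumors. Among lymphocyte-attracting chemokines and their receptors 6 of 8 were higher in Myc tumors, with a median log2 fold change of 4.04, among them Cxcr3 (3.96, SE 0.95, adjusted p = 0.00471), a receptor of activated T and NK cells, and its ligands Cxcl9 and Cxcl10 (edgeR).

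Of 7 B and plasma cell genes, Cd79b was higher, Pax5 lower and 5 not called, among them Cd79a with a log2 fold change of 0.95 (SE 0.60, adjusted p = 0.226, edgeR). Of 5 lymph node and thymus genes tested, Cxcr5 was higher and Rag1 and Cr2 lower in Myc tumors. Rag1, the recombinase of developing lymphocytes, was 0.761 to 6.11 TPM in the 5 Shh tumors and at most 1.01 TPM in Myc tumors, with 6 of 11 at 0 counts. Dntt and Ptcra of the same list were not called. Over the 5 Shh tumors they had 5 and 25 counts in all, and Dntt was above the floor in 0 of them. Which cells carried the Rag1 reads was not tested.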

How the data were processed

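Polyadenylated RNA of 16 tumors was sequenced as stranded libraries. The authors mapped the reads with STAR 2.5.3a to mm10 and deposited raw counts per gene and TPM for the same tumors; the annotation is not given in the sources used here. All 9 members lay in both tables. The deposited counts held 24982 genes and the deposited TPM values 24951, and no tumor was left out. No 2 tumors had identical counts, and as each came from its own mouse, p-values measure the spread between mice. Groups followed the labelled sites, and Shh and Myc follow from them. The quasi-likelihood test of edgeR 4.0.16 (R 4.3.3, TMM factors) was run on the counts of all genes with at least 1 count among the tumors compared (21854 over all tumors, 21261 over Myc tumors). A gene was called at a Benjamini-Hochberg adjusted p under 0.05, adjusted over all these genes, and, except for age, an absolute log2 fold change above 1. The code was tested on simulated data. The members' log2(TPM + 1) were compared by two-sided exact permutation tests (numpy 2.4.6), and these p-values are not adjusted for the 9 genes. Ratios of pooled counts carry 95% exact binomial intervals, which, like the floor of 3 counts, cover counting error only, as reads carry no molecular identifiers. Positions came from GENCODE M21. Alternatives were DESeq2 1.42.0, limma 3.58.1 on log2(TPM + 1), other size factors, filters, covariates, pseudocounts and subsets of tumors. The genes named were the members, a fixed set of markers, called genes of the lymphocyte lists and the 5 genes most like Cd3e and Ncr1. Itgax, Flt3, Tbx21, Dntt and Ptcra were named after their values were seen. Members and lists were chosen with earlier results of these data known. Trdc, Tcrg-C1, Cd244 and Fdcsp of the lists were not analysed here. Some genes of the lists are not reported here by name.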

Additional observations from a re-analysis of the deposited data

Results flagged for a closer look

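Within the intra-CNS tumors the Ncr1 level of 29050A, 0.038 in log2(TPM + 1), stood apart from the other 4 tumors, which were all at 0. It corresponds to 1 count. The gap of the highest or lowest tumor was examined in 27 groups (9 genes at 3 sites), and chance alone flags about 5% of groups without ties. With the other 4 tumors tied at 0, any single count gives the largest possible gap, so that this rate does not apply here.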

How the results depend on the processing

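Against 5689 genes called between Myc and Shh tumors, 3533 were called with E6 tumors alone, and the count ranged from 4766 to 6649 when 1 tumor was left out. The number of members called was 6, and it was 1 with limma, 2 with E6 tumors alone, 3 with intracranial tumors alone and 3 to 7 when 1 tumor was left out, the lowest without R26P87. Without R26P115 and 29048, an alternative chosen after seeing the data, 5 members were called, Cd3g being lost (adjusted p = 0.0712). The median log2 fold change of all genes was 0.15 and -0.20 in limma, a scaling under which 1307 genes were higher and 4075 lower, against 2860 and 2829; the members stayed positive. Between sites of Myc tumors 1 gene was called, 490 with DESeq2, 0 in a fit of 3 sites and 0 to 3 without 1 tumor; of the members, DESeq2 called 1 (Cd4) and the main test 0. For age 0 genes were called, 36 with DESeq2, 1 with age in days and 0 to 1 without 1 tumor. The number of members with an exact permutation p under 0.05 was 5 between subgroups (2 to 5 without 1 tumor; 46.8% of all genes) and 1 between sites (1 to 2; 6.33%). Directions that reversed belonged to differences that were not called: between sites, Klrb1c (-0.26 to 0.86 without 1 tumor; -0.12 to 0.28 in log2(TPM + 1)) and Ncr1 (-0.58 to 1.203; -0.15 to 0.29); with age, Cd4 (0.0865 with site as covariate; -0.75 to 0.27 without 1 tumor), Foxp3 (-0.0049 per day; -1.01 to 1.97), Nkg7 (-1.04 to 1.38), Klrb1c (-1.75 to 0.50) and Ncr1 (-2.59 to 0.55). The cause of these changes was not tested. Foxp3 and Ncr1 had no value under the filter on low counts, in either comparison of groups. No paired analysis was possible because the groups share no mouse, and replicate numbers only name tumors. Depth limits members at 3 counts or fewer, which includes Ncr1 in all Shh tumors.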
